A study of Mus musculus with 33 samples.

Results

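A set of 10 genes of sulfide and sulfur amino acid metabolism is described here in mouse liver and liver tumours with activated MYC, activated β-catenin, or the pair of them. The 10 genes are Sqrdl, Mettl7b, Ethe1, Tst, Mpst, Suox, Cth, Cbs, Cdo1 and Csad, and all 10 were found by symbol among the 21671 genes of the deposited table. Sqrdl and Mettl7b were chosen because their RPKM (a read count scaled by gene length and library size) was low when activated β-catenin was added to MYC in tumours and not in livers. The other 8 were chosen by pathway. The Ex3 comparisons of Sqrdl and Mettl7b are therefore given as a description, with no test.

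The 33 samples fell into 7 groups of C57BL/6 mice. In the short-term arm, mice of 6 to 8 weeks received AAV8-TBG-CRE by intravenous injection, a virus whose TBG promoter limits Cre recombinase to hepatocytes, and livers were taken on day 4. These livers were wild type (WT), beta-cat Ex3 (a β-catenin allele that loses exon 3 and so escapes degradation, called Ex3 here), R26-lslMYC (a MYC transgene that Cre switches on, called MYC) or R26-lslMYC/beta-cat Ex3 (MYC+Ex3), with 5 livers each. In the tumour arm, liver nodules came from mice with Alb-CreERT2, a Cre driven by the albumin promoter and activated by tamoxifen, and R26-lslMYC (MYC tumours, 3) or R26-lslMYC with the β-catenin Ex3 allele (MYC+Ex3 tumours, 3). Their comparison group was 7 wild-type livers taken 4 days after intraperitoneal 4-OHT, the active form of tamoxifen, so that these controls carried no nodule, no MYC transgene and no Ex3 allele. The age of the tumour-bearing mice, and whether nodules of 1 animal were pooled, are not given in the sources used here.

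Hydrogen sulfide is made in hepatocytes from cysteine and homocysteine and is toxic to respiration when it builds up. Mitochondria remove it by a chain of enzymes: Sqrdl, the sulfide:quinone oxidoreductase, passes its electrons to coenzyme Q and leaves a persulfide, Ethe1 oxidises the persulfide to sulfite, Tst (rhodanese) exchanges sulfur between thiosulfate and other acceptors, and Suox turns sulfite into sulfate. Mettl7b offers another route, methylating hydrogen sulfide and other thiols. Cbs and Cth form the transsulfuration pathway from homocysteine to cysteine, Mpst releases sulfide from mercaptopyruvate, and Cdo1 and Csad carry cysteine towards taurine, which the liver joins to bile acids.

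The promoters of 3 genes are shown as letters: Sqrdl and Mettl7b, because they were low together in the same tumours, and Cbs, because it was the 1 gene with a match to the E-box bound by MYC among those searched. The sequences are the 250 bases before the RefSeq transcription start, 5′ to 3′ on the strand of the gene, in the GRCm38.p6 build. The deposited values were made on mm9 per the submitters' processing notes, so these coordinates serve only to identify the letters. RefSeq lists Sqrdl as Sqor. Sqrdl lies at chr2:122771463-122771712 on the plus strand, Mettl7b at chr10:128960989-128961238 on the minus strand and Cbs at chr17:31637206-31637455 on the minus strand. Capitals mark the motif CACGTG.
Sqrdl: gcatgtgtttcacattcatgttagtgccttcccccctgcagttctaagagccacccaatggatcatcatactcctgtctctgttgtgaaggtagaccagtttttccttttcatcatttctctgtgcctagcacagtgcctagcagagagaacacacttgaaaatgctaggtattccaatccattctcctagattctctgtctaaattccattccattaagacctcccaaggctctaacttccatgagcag
Mettl7b: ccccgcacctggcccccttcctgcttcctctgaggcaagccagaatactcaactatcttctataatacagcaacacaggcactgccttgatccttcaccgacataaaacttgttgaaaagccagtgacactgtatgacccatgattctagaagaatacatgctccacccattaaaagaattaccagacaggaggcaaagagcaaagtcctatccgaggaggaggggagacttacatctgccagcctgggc
Cbs: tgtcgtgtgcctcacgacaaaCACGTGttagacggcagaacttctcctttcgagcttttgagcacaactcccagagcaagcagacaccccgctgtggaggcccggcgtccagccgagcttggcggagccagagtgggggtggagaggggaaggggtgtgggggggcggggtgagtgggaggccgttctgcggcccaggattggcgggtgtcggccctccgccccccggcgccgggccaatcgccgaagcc

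Promoters were searched for 7 of the 10 genes, with 11 transcription starts between them. Those of Tst, Cth and Cdo1 were not searched. In windows from 250 bases before to 50 after the start, CACGTG, which reads the same on both strands, was present at 1 of the 11 starts, that of Cbs, against 7.15% of all 32851 promoters of the same length. The TCF/LEF core CTTTGA, searched on both strands, was at 0 of the 11 starts, and is present in 16% of all promoters. The variant core CTTTGT, searched the same way, was found at a start of Csad and a start of Mpst, and is present in 18.7% of all promoters. The 3 motifs share no full match. Among the 10 genes, Tst and Mpst are neighbours on chromosome 15 with no other protein-coding gene between them, and Mettl7b and Suox lie on chromosome 10 with 15 protein-coding genes between them.

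The livers of the short-term arm held 3749019 to 7313994 reads assigned to genes per library, and the libraries of the tumour arm 6648579 to 9823986. RPKM of the arms are on different scales and were compared only within an arm. The highest RPKM of any gene was 220 to 396 in a short-term library and 42.9 to 67.5 in a tumour-arm library, low for liver, whose top transcripts usually stand far above the rest. Mettl7b reached up to 85.8% of its library's highest value, Cdo1 up to 85.4% and Tst up to 73.9%. Changes at the top of this scale may therefore be compressed, which was not tested. Within groups of short-term livers, log2 reads rose on log2 depth with a slope of 0.640 for Mettl7b, 0.484 for Tst and 0.158 for Cdo1. A slope of 1 is proportional, and RPKM falls with depth where the slope is lower. Slopes were 0.582 for Sqrdl, 0.105 for Cth, 0.954 for Suox and 0.987 for Csad. Those of Ethe1 (1.63), Mpst (1.74) and Cbs (1.27) were above 1. No 2 libraries held identical values. The reads behind the 10 genes ran from 84 for Sqrdl in a MYC+Ex3 tumour to 3148 for Csad. The labels held for Axin2, a β-catenin target. It was 3.003 ± 0.202 (SE) higher on the log2 scale in MYC+Ex3 than in MYC tumours (limma adjusted p 9.09e-07). In the matching livers it was 2.18 ± 0.351 higher (0.00906). The other Ex3 checks, Lgr5, Tbx3 and Glul, were higher by 1.94, 2.27 and 1.46 in tumours, all called by limma. In the matching livers they were higher by 1.71, 1.48 and 0.94. There limma called Lgr5 (adjusted p 0.0323) but not Tbx3 (0.0856) or Glul (0.0948). In Ex3 against WT livers it called Axin2 (0.0123) and Lgr5 (0.0406) but not Tbx3 (0.496) or Glul (0.905). The MYC target Ncl was 1.59 ± 0.137 higher with MYC across the short-term livers (limma adjusted p 4.46e-08).

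Sqrdl was nearly lost from the MYC+Ex3 tumours. Its RPKM was 11.6 to 15.04 in the 4-OHT livers (median 13.6), 12.9, 9.16 and 11.6 in the 3 MYC tumours, and 1.12, 1.51 and 0.942 in the 3 MYC+Ex3 tumours. All 3 MYC+Ex3 tumours lay below every other library of the arm, while the MYC tumours overlapped the 4-OHT livers. The means were 13.1 ± 1.34 (SD, n = 7), 11.2 ± 1.90 (n = 3) and 1.19 ± 0.288 (n = 3), so the level in MYC+Ex3 tumours was 9.42-fold lower than in MYC tumours, or 10.6% of it. The reads behind the 3 low values were 118, 130 and 84.

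Mettl7b followed the same pattern with a wider spread. Its RPKM was 34.2 to 46.4 in the 4-OHT livers (median 43.2), 46.2, 18.9 and 24.04 in the MYC tumours, and 4.73, 8.46 and 3.56 in the MYC+Ex3 tumours. The first MYC tumour was at the top of the 4-OHT range and the other two lay below it, while all MYC+Ex3 tumours lay below all other libraries. The means were 40.9 ± 4.88 (SD, n = 7), 29.7 ± 14.5 (n = 3) and 5.58 ± 2.56 (n = 3), a 5.32-fold lower level in MYC+Ex3 than in MYC tumours. On the log2(RPKM + 1) scale the differences were -2.47 ± 0.147 (SE) for Sqrdl and -2.19 ± 0.289 for Mettl7b, which placed Sqrdl 4th and Mettl7b 11th from the lowest among 11854 genes. The authors' deposited table gives log2 fold changes of -2.94 for Sqrdl and -1.88 for Mettl7b in the same comparison.

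**Figure D1:**
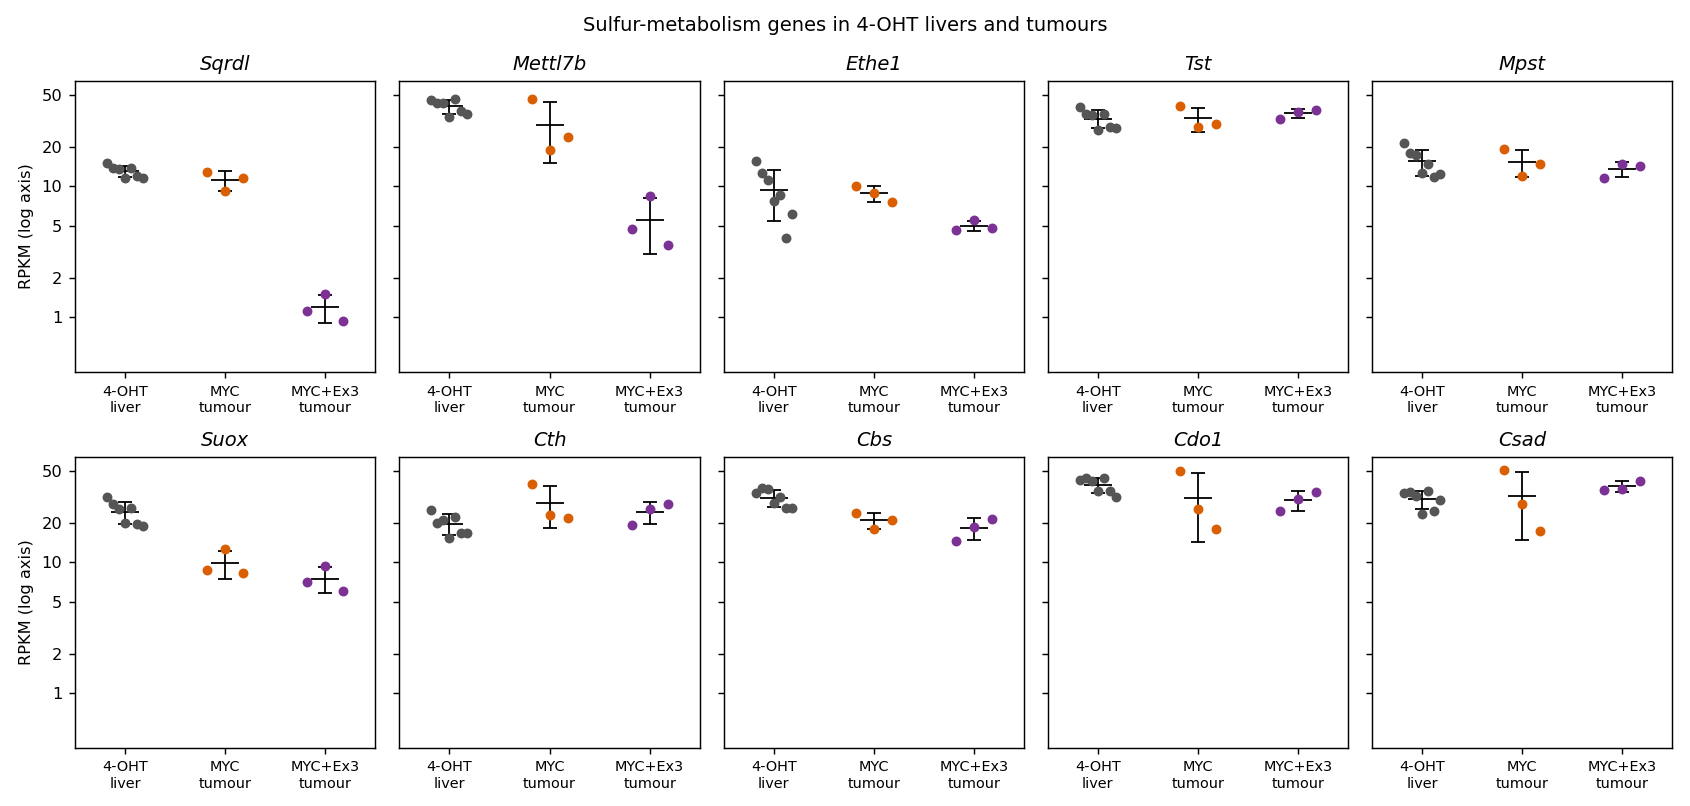
RPKM (log axis) of the 10 genes in each of the 7 4-OHT livers, 3 MYC tumours and 3 MYC+Ex3 tumours, 1 point per library, with bars for the mean and SD. Sqrdl and Mettl7b lie lowest in the 3 MYC+Ex3 tumours, and Suox and Cbs lie below the 4-OHT livers in all 6 tumours.

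In the short-term livers neither gene showed a drop of that kind with Ex3. Sqrdl RPKM was 72.0, 80.3, 74.2, 66.0 and 72.0 in WT livers and 60.6, 62.5, 73.8, 71.7 and 75.8 in Ex3 livers. It was 47.3, 61.9, 68.7, 70.8 and 62.7 in MYC livers and 47.7, 45.6, 59.2, 60.5 and 71.1 in MYC+Ex3 livers. The means fell in the order WT 72.9, Ex3 68.9, MYC 62.3 and MYC+Ex3 56.8, and each neighbouring pair overlapped. MYC+Ex3 differed from MYC by -0.13 ± 0.123 (SE) on the log2 scale. Within the libraries free of keratin reads described below, with 2 MYC+Ex3 and 4 MYC livers, the difference was -0.35.

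Mettl7b was among the highest of the 10 genes in these livers. Its RPKM was 196, 236, 223, 219.6 and 231 in WT livers and 242, 215, 244, 249 and 261 in Ex3 livers. It was 224, 219, 227, 179 and 193 in MYC livers and 191, 178, 256, 205 and 219 in MYC+Ex3 livers. The order of the means was Ex3 242, WT 221, MYC+Ex3 209.9 and MYC 208, again with overlap between all neighbours. MYC+Ex3 differed from MYC by 0.00 ± 0.0966 (SE) on the log2 scale. In libraries free of keratin reads, with 2 MYC+Ex3 and 4 MYC livers, the difference was -0.22. In those that had keratin reads it was 0.34, where 3 MYC+Ex3 livers were set against 1 MYC liver. That MYC liver had the lowest Mettl7b of its group, 179 RPKM.

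**Figure D2:**
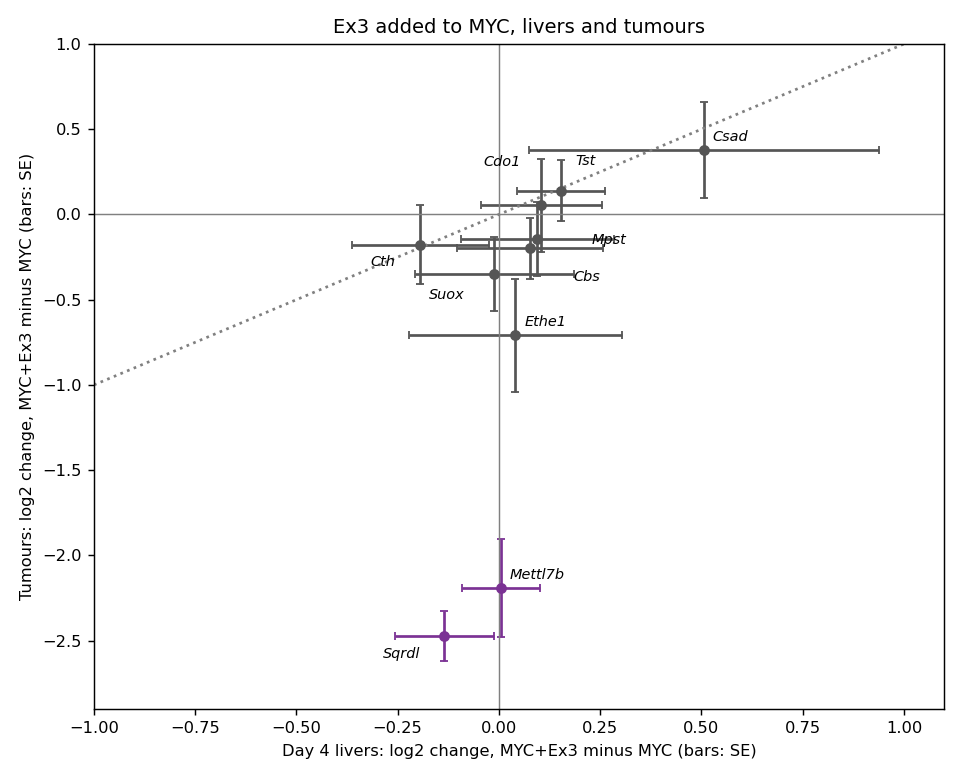
Log2 change of RPKM + 1 when Ex3 was added to MYC, in day 4 livers (horizontal axis) and in tumours (vertical axis), with bars of 1 SE and a dotted line of equal change on this scale. RPKM were lower in the tumour arm, where the added 1 weighs more, so equal fold changes need not fall on the line. Sqrdl and Mettl7b, in purple, stand at -2.47 and -2.19 in tumours and near 0 in livers, and the 8 genes chosen by pathway lie between -0.71 and 0.38 in tumours.

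Among the 8 genes chosen by pathway, none passed the test for Ex3 added to MYC in tumours, where limma called 2.1% of all genes lower and 2.02% higher and 2089 genes had an unadjusted p under 0.05. Ethe1, the enzyme that acts directly after Sqrdl, came nearest. Its RPKM was 10.1, 8.97 and 7.57 in MYC tumours and 4.67, 5.55 and 4.84 in MYC+Ex3 tumours, so the groups did not overlap, as held for 7.71% of all genes on the lower and 8.59% on the higher side. The difference was -0.71 ± 0.331 (SE, 95% interval -1.42 to 0.0015) on the log2 scale, with a limma adjusted p of 0.285. The authors' deposited table, whose fold changes come from DESeq2 per the submitters' processing notes, gives -0.79 with an adjusted p of 0.0156 for Ethe1. The other 7 had differences from -0.35 (Suox) to 0.38 (Csad) and limma adjusted p of 0.436 or more. Leaving out the first MYC tumour moved Csad to 0.77 with a limma adjusted p of 0.0462.

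In the short-term livers Ex3 called none of the 8 genes, alone or on top of MYC, and neither did the interaction of MYC with Ex3. Limma called 0.132% of all genes in Ex3 against WT and 0.19% in MYC+Ex3 against MYC, all higher, with 0% lower, and 0% in the interaction. Unadjusted p under 0.05 were reached by 744, 461 and 132 genes. The 95% intervals of Ex3 added to MYC reached from -0.42 to 0.40 for Suox and from -0.30 to 0.45 for Cbs. None of the 8 had groups without overlap in either Ex3 comparison of livers. Of all genes, 0.563% lay wholly lower and 1.03% wholly higher with Ex3 alone, and 0.183% lower and 0.497% higher with Ex3 on MYC. Sqrdl and Mettl7b overlapped as well, which their choice fixed for the lower side. The difference between the Ex3 effects of tumours and livers was -0.75 ± 0.264 (SE) for Ethe1 with a limma adjusted p of 0.851, and 0 of the 8 were called, against 0.0222% of all genes lower and 0.0889% higher, with 565 genes at an unadjusted p under 0.05. For Sqrdl and Mettl7b it was -2.34 ± 0.2405 and -2.20 ± 0.353, values that the choice of these genes fixed. The 1 added to RPKM weighs more on the lower scale of the tumour arm, so equal fold changes need not give a difference of 0.

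Markers of hepatocyte zones and of other kinds moved with the low Sqrdl and Mettl7b. The summed RPKM of 7 periportal markers was 175 to 235 in 4-OHT livers, 140.1 to 186 in MYC tumours and 51.5 to 105 in MYC+Ex3 tumours. That of 6 pericentral markers was 124 to 177, 35.3 to 97.3 and 168 to 178. The 6 general hepatocyte markers overlapped between the tumour kinds, at 156 to 244 in MYC and 143 to 190 in MYC+Ex3 tumours, with no marker at 0 in all libraries of a group. Macrophage markers (6 measured) summed to 77.3 to 104 in 4-OHT livers, 19.2 to 79.4 in MYC and 29.6 to 36.1 in MYC+Ex3 tumours. Erythroid markers (3 measured) summed to 17.8 to 36.7, 14.9 to 36.3 and 38.95 to 48.6, and 4 proliferation markers to 10.3 to 25.6, 40.6 to 70.5 and 74.1 to 88.6, so that both lists separated the tumour kinds. The part of zonation, cell makeup or proliferation in these results was not tested, and in bulk tissue fewer cells of a type and less RNA per cell cannot be told apart.

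MYC lowered 4 of the 10 genes across the short-term livers when WT and Ex3 livers were set against MYC and MYC+Ex3 livers. With equal group sizes, as in the main fit, this comparison is independent of the Ex3 contrasts, and it was tested for all 10. Sqrdl and Mettl7b were nevertheless chosen partly by their values in these same livers. Fits of subsets, with covariates or with a library left out lack equal groups. The adjusted p of Sqrdl and Mettl7b in such fits are a description only. Suox, Cbs, Cdo1 and Sqrdl passed the limma test, all lower, against 13.4% of all genes called lower and 25.9% called higher. All 10 log2 changes were below 0, with a median of -0.17 against 0.04 for all 13688 genes. Markers moved with MYC in the same livers. Proliferation markers summed to 2.59 to 10.8 RPKM in WT and 91.6 to 241 in MYC livers, and pericentral markers to 731 to 919 and 253 to 633. Periportal sums of WT and MYC livers, at 979 to 1164 and 579.9 to 1009, overlapped. Between Ex3 and MYC+Ex3 livers, proliferation sums were 7.5 to 84.2 and 160 to 277. Pericentral sums overlapped there, at 914 to 1292 and 701 to 1273, as did periportal sums, at 932 to 1145 and 585 to 974. Their part in these changes was not tested.

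Suox, the last enzyme of sulfide oxidation, moved most. Its RPKM was 123, 108, 119.99, 107 and 126 in WT and 119, 117, 113, 148 and 104 in Ex3 livers, against 72.6, 95.8, 88.0, 39.5 and 87.9 in MYC and 63.3, 58.1, 88.0, 60.3 and 105 in MYC+Ex3 livers. Only the fifth MYC+Ex3 liver reached the range of the livers without MYC. The change was -0.68 ± 0.139 (SE) on the log2 scale with a limma adjusted p of 0.000644, and it was -0.66 in MYC against WT (limma adjusted p 0.0205) and -0.70 in MYC+Ex3 against Ex3 (0.0142). Of the 8 genes with a test there, 2 were called in MYC against WT, where 5.36% of all genes were called lower and 16.9% higher, and 1 in MYC+Ex3 against Ex3, where 4.7% were called lower and 16.4% higher. MYC and WT livers did not overlap, which held for 2.4% of all genes on the lower and 10.9% on the higher side. Without the fourth MYC liver, the lowest of all, the change against WT was -0.44 with a limma adjusted p of 0.0527.

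Cbs, which opens transsulfuration, had RPKM of 132, 104, 143, 135 and 142 in WT and 153, 133, 121, 143 and 116 in Ex3 livers. With MYC it had 94.0, 121, 121, 48.7 and 94.2, and with MYC+Ex3 96.3, 87.8, 86.0, 99.7 and 114. All MYC+Ex3 livers lay below all Ex3 livers, as held for 5.02% of all genes on the lower and 15.2% on the higher side, while MYC and WT livers overlapped. The change across both backgrounds was -0.48 ± 0.128 (SE) with a limma adjusted p of 0.0052. MYC against WT gave -0.51 (limma adjusted p 0.0477) and lost its call in 16 of 20 fits that left out 1 library, with -0.29 and 0.115 without the fourth MYC liver, and in 4 other alternatives: no filter on low values (0.075), sex as a covariate (0.0636), keratin-free livers (0.135) and only those groups fitted (0.135). MYC+Ex3 against Ex3 gave -0.46 (0.0783), and was called in 4 alternatives, at -0.52 (0.0348) after each library was rescaled by its median ratio to the others, -0.46 (0.0494) with keratin reads as a covariate, -0.63 (0.023) within keratin-free livers and -0.46 (0.00745) with only those groups fitted, and also without the fourth MYC liver (0.00572).

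Cdo1 means were 254 ± 20.6 (SD, n = 5) in WT and 258 ± 31.1 in Ex3 livers, against 198 ± 35.96 in MYC and 217 ± 57.5 in MYC+Ex3 livers. Its change across both backgrounds was -0.32 ± 0.106 (SE) with a limma adjusted p of 0.02. In MYC against WT it was -0.37 (0.0838), or -0.47 (0.0274) without the third MYC liver. The authors' deposited DESeq2 value for Cdo1 in MYC against WT livers is -0.446, with a DESeq2 adjusted p of 0.0303. Across both backgrounds Sqrdl changed by -0.26 ± 0.0870 (limma adjusted p 0.0225). Mettl7b changed by -0.15 ± 0.0683 (0.0861), and by -0.19 (0.0197) without the third MYC+Ex3 liver. That liver had the highest Mettl7b RPKM of its group, 256, but the fewest Mettl7b reads, 1179. Its library also held the fewest reads in genes, 3749019, and the part of depth was not tested. Tst changed by -0.13 ± 0.0765 (0.197), and by -0.18 (0.0399) without the same liver. Ethe1, Mpst, Cth and Csad did not pass, with changes from -0.19 to -0.07. Rescaling moved Mettl7b to -0.23 (limma adjusted p 0.0403), so that 5 of the 10 were called.

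**Figure D3:**
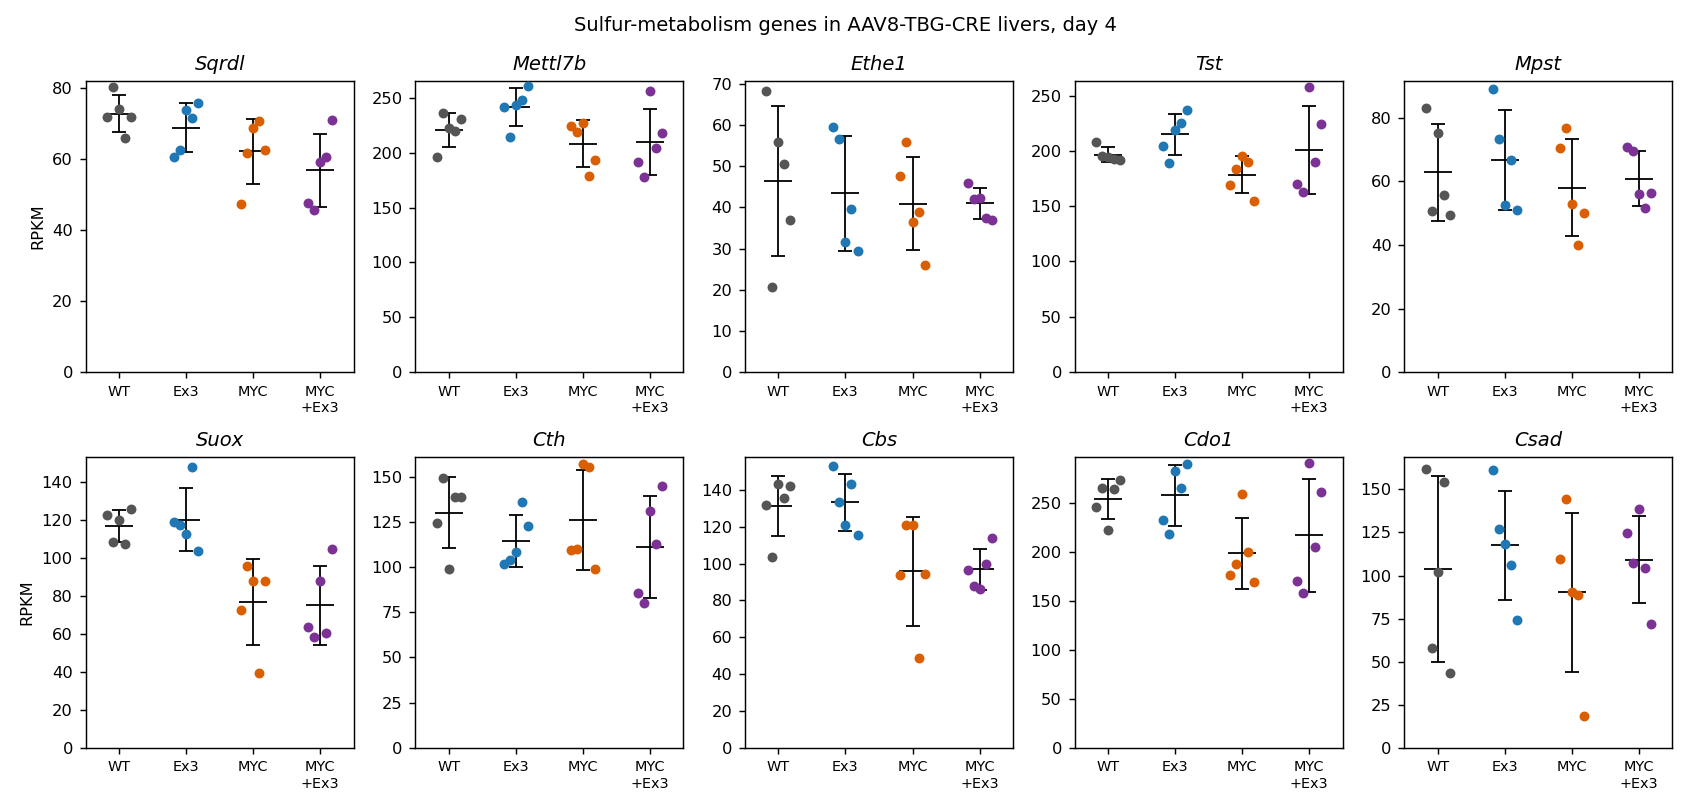
RPKM of the 10 genes in each of the 20 day 4 livers, 1 point per library, with bars for the mean and SD and each axis starting at 0. Suox and Cbs are lower in most livers with MYC, and Csad spreads from 18.2 to 144 within the MYC livers alone.

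Sex and keratin reads were unevenly spread over these groups and went with some of the 10 genes. Males, read from Xist and Ddx3y, numbered 2 among the 5 WT livers, 3 each among Ex3 and MYC, and 4 in MYC+Ex3. The fifth MYC liver, read as female, had Xist of 86.1 RPKM and also Ddx3y of 4.74. The other female livers had Ddx3y of at most 0.134, and the males of at least 30.6. Csad was 125 ± 28.5 (SD, n = 12) in males and 76.0 ± 34.5 (n = 8) in females, Suox was 87.3 ± 27.9 and 112 ± 19.8, and Sqrdl was 60.8 ± 9.86 and 71.8 ± 5.01. These means pool all groups, so sex is mixed with genotype in them. Suox means of males and females were 115 and 118 in WT and 113 and 130 in Ex3 livers. They were 69.3 and 87.9 in MYC livers, and 67.4 and 105 in MYC+Ex3 livers, where 1 liver was female. With sex as a covariate the change with MYC was -0.62 for Suox, -0.46 for Cbs, -0.29 for Cdo1 and -0.22 for Sqrdl, and limma called all 4 (adjusted p 0.000873, 0.00931, 0.0345 and 0.0361).

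Of the 20 livers, 10 had an RPKM sum of Krt5, Krt14 and Krt17, epidermal keratins, of at least 1: 3 WT, 3 Ex3, 1 MYC and 3 MYC+Ex3. Ethe1 was 49.4 ± 12.4 (SD, n = 10) in the livers without keratin reads and 36.5 ± 7.97 (n = 10) in those with them, Mpst was 71.2 ± 12.01 and 53.1 ± 6.79, and Cdo1 was 204 ± 36.1 and 259.6 ± 32.0. The keratin-bearing livers also held fewer reads in genes, 3749019 to 5095333. All keratin-free livers but the third MYC liver (4390164) held 5253915 or more. Within groups, the slope of log2 reads on log2 depth was 1.63 for Ethe1, 1.74 for Mpst and 0.158 for Cdo1, where 1 is proportional. Keratin and depth cannot be told apart here, and the part of either was not tested. Within keratin-free livers MYC changed Suox by -0.72, Cbs by -0.49, Cdo1 by -0.36 and Sqrdl by -0.34, all called by limma (adjusted p 0.000309, 0.00608, 0.0458 and 0.0368). Within keratin-bearing livers Suox changed by -1.02 and Cbs by -0.85 (0.00179 and 0.00107), while Cdo1 and Sqrdl, at -0.29 and -0.12, were not called (limma adjusted p 0.0526 and 0.31) and Mettl7b, at -0.26, was (0.0345). With keratin reads as a covariate over all 20 livers limma called 5 of the 10, with Suox at -0.70, Cbs at -0.53, Cdo1 at -0.26, Sqrdl at -0.21 and Mpst at -0.22 (adjusted p 0.000663, 0.00148, 0.0193, 0.0233 and 0.0385). In MYC+Ex3 against Ex3, Suox was -0.54 and not called within keratin-bearing livers (limma adjusted p 0.116). The keratin split was chosen after the values were seen, and its keratin-bearing fit rests on 1 MYC liver, the one with the lowest Suox and Cbs.

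Against 4-OHT livers, Suox and Cbs were lower in tumours of both kinds. Suox RPKM was 19.0 to 31.6 in 4-OHT livers (median 25.4), 8.68, 12.6 and 8.20 in MYC tumours and 7.09, 9.34 and 6.00 in MYC+Ex3 tumours. No tumour reached the 4-OHT range. The mean of the tumour kinds differed from 4-OHT livers by -1.398 ± 0.146 (SE) on the log2 scale with a limma adjusted p of 2.08e-06, and each kind passed alone, at -1.22 (0.000109) and -1.57 (6.51e-06). Suox RPKM was 2.47-fold lower in MYC tumours than in 4-OHT livers.

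Cbs RPKM was 25.9 to 36.8 in 4-OHT livers (median 31.7), 23.9, 18.01 and 21.0 in MYC tumours and 14.6, 18.7 and 21.4 in MYC+Ex3 tumours. Here too no tumour reached the 4-OHT range. The difference was -0.65 ± 0.121 (SE) with a limma adjusted p of 0.000335, and it was -0.55 for MYC tumours (0.00799) and -0.75 for MYC+Ex3 tumours (0.000676). Of the 8 genes with a test, 2 were called lower and 1 higher for the tumour kinds together, against 19% of all genes called lower and 45.2% higher. For MYC tumours 2 were called lower, against 13.7% of all genes called lower and 36.2% higher, and for MYC+Ex3 tumours 3, against 18.4% lower and 42.3% higher.

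Cth, which completes transsulfuration, was the gene called higher. Its RPKM was 15.2 to 25.3 in 4-OHT livers (median 20.1), 39.7, 23.0 and 21.8 in MYC tumours and 19.2, 25.5 and 27.9 in MYC+Ex3 tumours, so the groups overlapped. The change was 0.38 ± 0.158 (SE) with a limma adjusted p of 0.0482. It was 0.16 (0.324) after rescaling and 0.25 (0.116) without the first MYC tumour, and 8 of 13 fits that left out 1 library did not call it. In MYC tumours alone it was 0.47 (limma adjusted p 0.0609), and 0.58 (0.0474), 0.62 (0.0404) and 0.53 (0.0356) without the second MYC tumour, the third or the first 4-OHT liver. The median of all genes was 0.21 for the tumour kinds together and 0.19 for MYC tumours.

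Ethe1 was called lower in MYC+Ex3 tumours, at -0.70 ± 0.280 (SE) with a limma adjusted p of 0.043. The call was lost in 7 of 13 fits that left out 1 library (limma adjusted p up to 0.114, without the first MYC+Ex3 tumour) and with no filter on low values (0.0726). Its RPKM was 4.05 to 15.7 in 4-OHT livers (median 8.53), a range that held the 3 values of the MYC+Ex3 tumours. The 4-OHT libraries with names starting S14 had Ethe1 of 7.68 to 15.7 and those starting S15 of 4.05 to 8.53, and against the 3 S15 livers alone the change was -0.22 (0.405). For the tumour kinds together Ethe1 changed by -0.34 (limma adjusted p 0.194), by -0.54 (0.0372) after rescaling and by -0.50 (0.0272) without the sixth 4-OHT liver. In the same S15 comparison Cbs changed by -0.40 in MYC tumours and was not called.

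Cdo1, Csad, Tst and Mpst passed no limma test against 4-OHT livers in the main fit. The authors' deposited DESeq2 values for MYC+Ex3 tumours against wild-type livers are -0.615 for Cdo1 and -0.385 for Mpst. Their DESeq2 adjusted p are 1.95e-07 and 0.0252. Cdo1 was 31.4 to 44.1 in 4-OHT livers (median 41.9), 49.9, 25.3 and 17.9 in MYC tumours and 24.5, 30.2 and 34.5 in MYC+Ex3 tumours. The first MYC tumour stood above the other two for Cdo1, and without it Cdo1 changed by -0.61 for the tumour kinds together (limma adjusted p 0.00059) and by -0.84 for MYC tumours (0.00103), while MYC+Ex3 tumours went from -0.39 (0.159) to -0.39 (0.0289), with less spread. After rescaling Cdo1 changed by -0.63 for the tumour kinds together (0.00833), -0.66 for MYC tumours (0.0284) and -0.61 for MYC+Ex3 tumours (0.0332), and with only those groups fitted the MYC+Ex3 change of -0.39 was called (0.0219). Csad, the taurine-forming decarboxylase, was 23.2 to 35.3 in 4-OHT livers, 50.7, 27.7 and 17.2 in MYC tumours and 35.6, 36.5 and 42.1 in MYC+Ex3 tumours. Its MYC+Ex3 tumours lay just above all 4-OHT livers, as held for 38.2% of all genes, with a change of 0.33 ± 0.239 (SE, limma adjusted p 0.249). Tst changed by 0.07 ± 0.123 and Mpst by -0.08 ± 0.148 for the tumour kinds together, with 95% intervals of -0.19 to 0.33 and -0.40 to 0.24.

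Sqrdl and Mettl7b differed from 4-OHT livers by -0.21 ± 0.125 and -0.54 ± 0.245 (SE) on the log2 scale in MYC tumours. In MYC+Ex3 tumours they differed by -2.69 ± 0.125 and -2.73 ± 0.245. The authors' deposited log2 fold changes against wild-type livers are -0.429 and -0.643 in MYC tumours, and -3.64 and -3.02 in MYC+Ex3 tumours. Of the 8 genes chosen by pathway, the MYC+Ex3 tumours lay wholly below the 4-OHT livers for 2 (Suox and Cbs), against 17.8% of all genes, and the MYC tumours for the same 2, against 8.89% on the lower and 26.3% on the higher side. Sqrdl and Mettl7b also did not overlap in MYC+Ex3 tumours, which the choice of these genes fixed. The comparisons of each tumour kind share the 7 control livers. Of the 7 controls 4 were male, as were all 3 tumours with MYC alone and 2 of the 3 with Ex3 added.

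**Figure D4:**
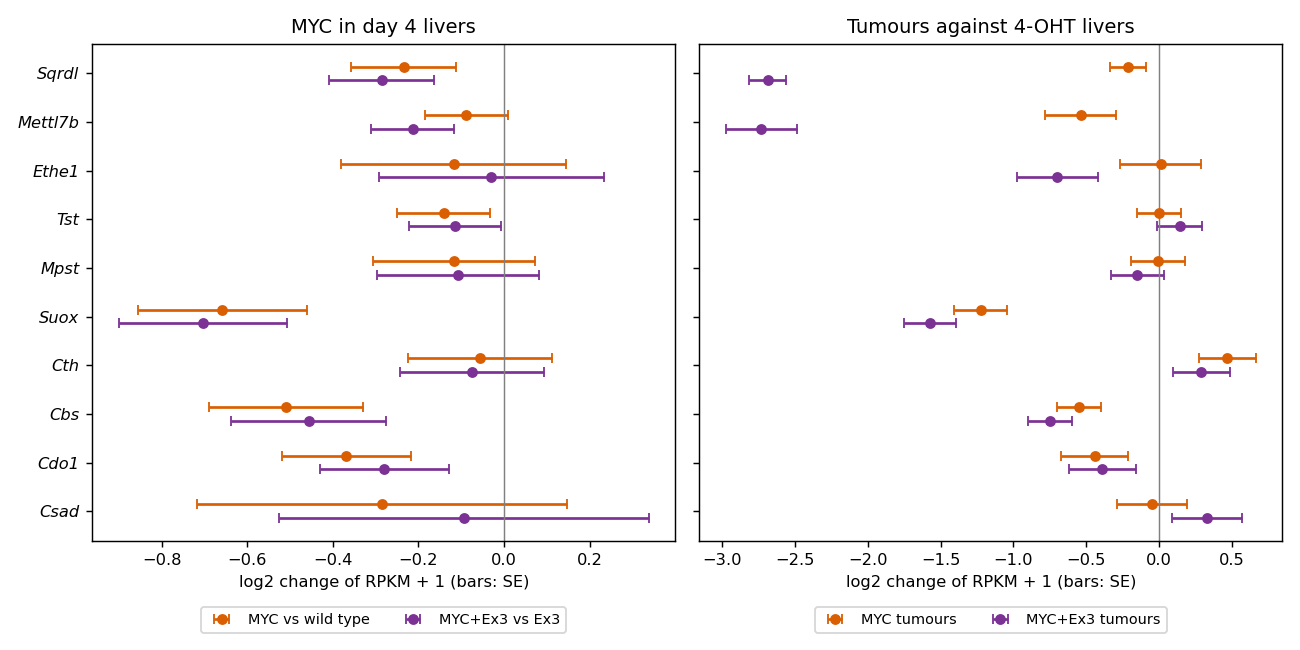
Log2 change of RPKM + 1 of the 10 genes with MYC in day 4 livers (left) and in each tumour kind against 4-OHT livers (right), with bars of 1 SE. Suox and Cbs are below 0 in all 4 comparisons, and Sqrdl and Mettl7b stand apart in MYC+Ex3 tumours, the pattern that chose them.

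Of 53 further genes of sulfur metabolism, from methionine cycle to sulfate transport, 47 were tested in the short-term livers, where limma called 9 higher and 16 lower with MYC, against 25.9% of all genes called higher and 13.4% lower. Their median change was -0.17, against 0.04 for all genes. In the methionine cycle 3 of 10 rose and 4 fell. Mtrr, which reactivates methionine synthase, rose by 1.26 ± 0.149 (SE), from 4.66 ± 1.08 RPKM (SD, n = 5) in WT to 13.1 ± 3.72 in MYC livers, and Mat2a, the methionine adenosyltransferase of growing cells, by 0.83 ± 0.102. Bhmt2, which remethylates homocysteine, fell by 0.62 ± 0.103 on the log2 scale. The limma adjusted p of the 3 were 1.42e-06, 2.09e-06 and 8.47e-05.

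The molybdenum cofactor is needed by Suox, and all 5 genes of its list were called with MYC, 4 lower and 1 higher, beside the same 13.4% and 25.9% of all genes. Mocs1, which takes the first step of its synthesis, changed by -0.53 ± 0.137 (SE) and Gphn, which inserts the metal, by -0.39 ± 0.0782 on the log2 scale, with Mocs2 at -0.27 and Mocos at -0.40. Mocs3 rose by 0.61 ± 0.1005. Chac1, which breaks down glutathione, changed by -0.99 ± 0.291 and Got1, an aspartate aminotransferase, by -0.58 ± 0.182. The limma adjusted p of these genes ran from 6.85e-05 to 0.0282. After rescaling 9 genes of the 53 were called higher and 20 lower, and no called gene turned its direction.

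In tumours of both kinds 46 of the 53 were tested, and limma called 12 higher and 17 lower than in 4-OHT livers, against 45.2% of all genes called higher and 19% lower, with a median of -0.14 against 0.21 for all genes. Rescaling gave 9 higher and 24 lower, again with no call reversed. Mtrr and Mat2a rose by 1.16 ± 0.150 and 0.94 ± 0.106 (SE). Ggt1, a γ-glutamyl transferase of glutathione breakdown, changed by 3.79 ± 0.494, with RPKM of 0.0122 to 0.0825 in 4-OHT livers, 0.275 to 22.4 in MYC tumours and 21.7 to 29.0 in MYC+Ex3 tumours. Oplah, of the same cycle, and Baat, which joins taurine to bile acids, fell, with changes of -1.55 ± 0.206 and -1.401 ± 0.305 (limma adjusted p 1.72e-05 and 0.00108), though the highest of the 3 MYC tumours reached 15.6 and 35.8 RPKM, within the 4-OHT ranges. Mocs1, at 16.2 ± 1.23 RPKM in 4-OHT livers (SD, n = 7), was 5.59 ± 0.595 in MYC and 5.99 ± 0.720 in MYC+Ex3 tumours (n = 3 each). Gphn changed by -0.02 (limma adjusted p 0.876) and was not called.

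Between the tumour kinds 3 of the 46 were called, all lower with Ex3, against 2.1% of all genes called lower and 2.02% higher. Mocos, which adds sulfur to the cofactor for other enzymes than Suox, was 3.68 ± 2.02 RPKM (SD, n = 3) in MYC and 0.805 ± 0.212 in MYC+Ex3 tumours, against 10.9 ± 3.04 in 4-OHT livers (n = 7). Tpmt, a thiopurine methyltransferase, was 4.49 ± 1.37 and 1.84 ± 0.421. Selenbp2 was 11.0 ± 4.66 and 0.865 ± 0.376, but it ran from 2.68 to 23.4 within the 4-OHT livers. The log2 changes were -1.28 ± 0.302, -0.93 ± 0.206 and -2.63 ± 0.627 (SE), with limma adjusted p of 0.0291, 0.0195 and 0.0301.

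**Figure D5:**
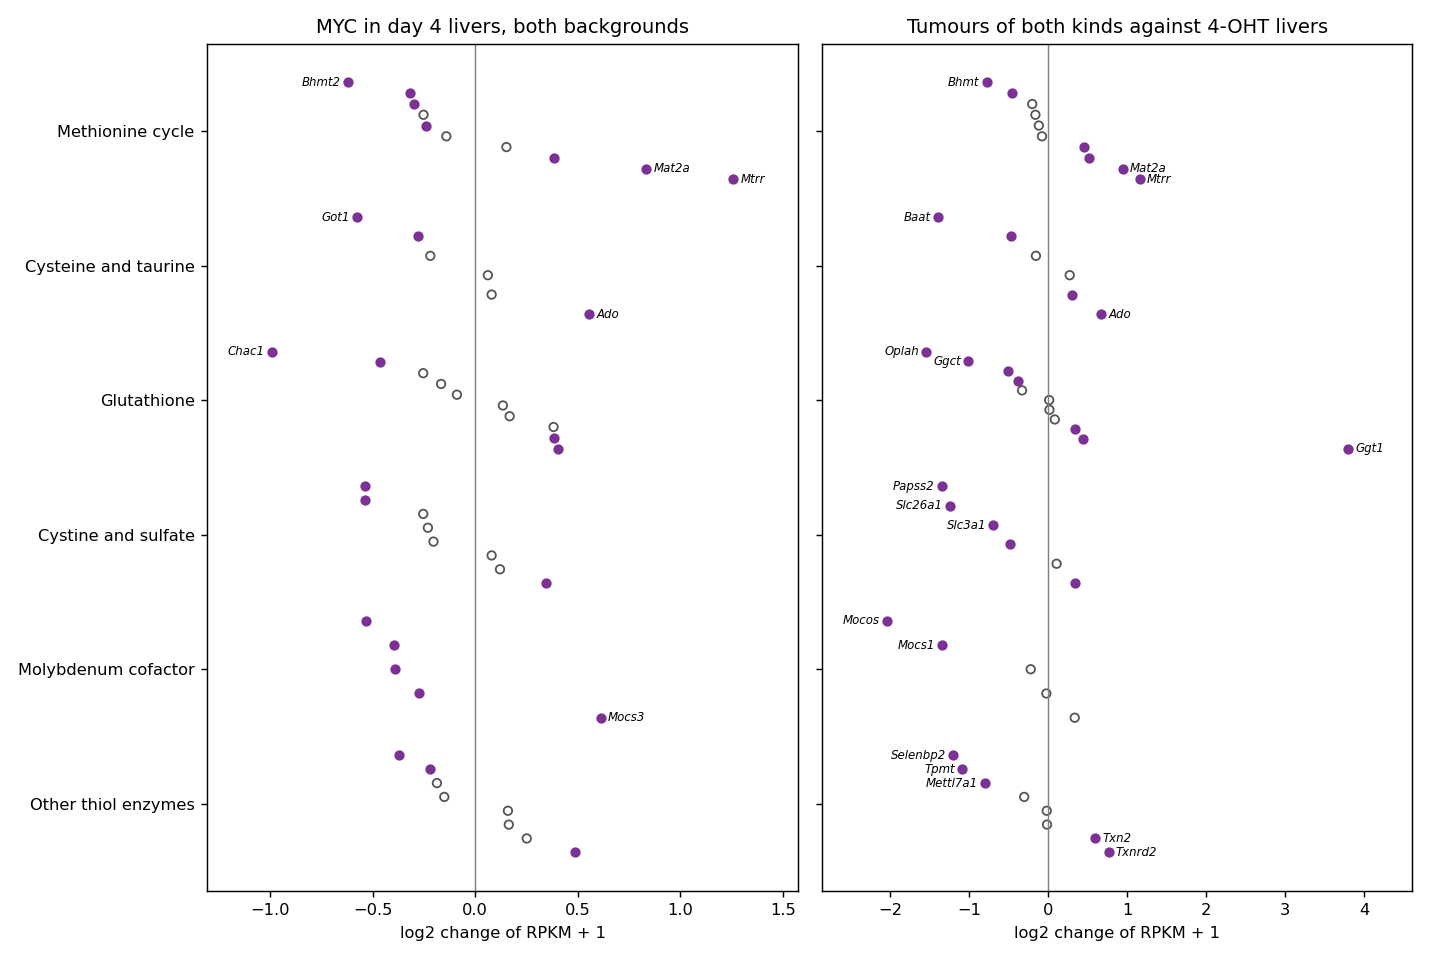
Log2 change of RPKM + 1 of the further sulfur metabolism genes, 1 point per gene by list, with MYC in day 4 livers (left) and in tumours of both kinds against 4-OHT livers (right); filled points passed the limma test at an adjusted p under 0.05 and open points did not. The left panel holds 9 filled points above 0 and 16 below, and the right panel 12 and 17.

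The genes closest to Sqrdl and Mettl7b were sought by the root mean square difference of the 7 group means of log2(RPKM + 1), each arm centred on its own mean, among 11005 genes tested in both arms. Mettl7b ranked the second closest to Sqrdl and Sqrdl the second closest to Mettl7b, at 0.124. Sqrdl was also followed by Enpp2 (0.102), Hsd17b6 (0.162), Ftcd (0.181) and Nnmt (0.207). Mettl7b was followed by Hsd17b6 (0.110), Ftcd (0.170), Cyp2j6 (0.180) and Enpp2 (0.183). Enpp2 RPKM was 6.76 in 4-OHT livers, 6.02 in MYC tumours and 0.262 in MYC+Ex3 tumours, and Hsd17b6 was 14.7, 17.8 and 2.02. Cyp2j6 was 9.15, 5.03 and 0.448. Likeness over 7 group means is a description that the contrast which chose Sqrdl and Mettl7b dominates.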

How the data were processed

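Total RNA of 33 mouse livers and liver nodules was sequenced from TruSeq stranded libraries per the labels' protocols. The deposited RPKM were made by the authors from reads aligned with TopHat2 2.0.8 to mm9 and counted with featureCounts 1.4.5-p1, tools and build named in the submitters' processing notes; the annotation and the library total behind the scaling are not given in the sources used here. The authors' deposited log2 fold changes and their adjusted p-values come from DESeq2, per the same notes, and are printed only where named as the authors'. RPKM values were whole multiples of 1 read for all 20485 genes with values (100%, tolerance 0.02 reads), which gave the read numbers printed. Total reads of 3749019 to 9823986 limit the precision of low genes.

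The log2(RPKM + 1) values were fitted with limma 3.58.1 in R 4.3.3 (trend, Benjamini-Hochberg over all genes with RPKM of at least 1 in at least 3 libraries), called at an adjusted p under 0.05, separately for the 20 short-term livers and the 13 tumour-arm libraries. A further fit of 16 libraries compared the Ex3 effects of tumours and livers. The fit was tested on simulated data. Nothing says that libraries of 1 group came from separate litters or days, so p-values measure the spread between these animals. Alternatives were a pseudocount of 0.1, other filters, rescaling by median ratio, covariates, subsets and leaving out each library.

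The 10 genes and all lists were chosen with earlier results of these data known. Of the further genes, those named are up to 3 called risers and 3 fallers per comparison with the largest changes, the genes most like Sqrdl and Mettl7b, and label checks; the other molybdenum cofactor genes were named after their values were seen. Sqrdl and Mettl7b have a test only in MYC across both liver backgrounds. That test is independent of the Ex3 contrasts only when group sizes are equal. The same livers were part of the choice of these genes. A test of them in tumours of both kinds was planned and is withheld, since it uses the tumours that chose them.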

Additional observations from a re-analysis of the deposited data

Results flagged for a closer look

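Of 50 combinations of a gene and a group of 5 or 7 libraries, 1 held a library far from the others: Tst in the first WT day 4 liver had 208.154 RPKM, the nearest other WT liver had 196, and this gap was 0.753 of the group's range. Chance gives such a gap in about 1 of 20 groups.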

How the results depend on the processing

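No result turned its direction while called. Counts of called genes over the whole table moved by more than 1.5 times in these cases. MYC against WT livers gave 3047 genes and 1249 within keratin-free livers, and MYC+Ex3 against Ex3 gave 2893 and 1668 within keratin-bearing livers. Ex3 against WT gave 18, 31 with sex as a covariate, and 2 within keratin-free and 2 within keratin-bearing livers. MYC+Ex3 against MYC livers gave 26, 11 with a pseudocount of 0.1, 10 with no filter, 6 and 227 within keratin-free and keratin-bearing livers, and 10 with only those groups fitted. The interaction gave 0, and 2 within keratin-bearing livers. With a filter of RPKM of at least 5, fewer genes were tested: tumours of both kinds against 4-OHT livers gave 4544 in place of 7610, MYC tumours 3636 in place of 5907 and MYC+Ex3 tumours 4278 in place of 7189. MYC+Ex3 against MYC tumours gave 489, 240 with that filter, 287 and 207 with the S14 or S15 4-OHT livers, and 70 with only the tumours fitted. The difference of Ex3 effects gave 15, 31 with a pseudocount of 0.1, 9 with the higher filter and 54 after rescaling. Against the S15 livers 1 of the 8 genes was called in MYC tumours in place of 2. The cause of these moves was not tested beyond the smaller number of genes or libraries.

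Leaving out 1 library gave 5 to 22 genes for Ex3 against WT livers, 7 to 37 for MYC+Ex3 against MYC livers, 199 to 764 for MYC+Ex3 against MYC tumours and 5 to 78 for the difference of Ex3 effects. Between tumours the count was 764 and 760 without the second and the third MYC tumour, and 225, 249 and 199 without the first, the second and the third MYC+Ex3 tumour; the difference of Ex3 effects gave 78, 34, 6 and 5 without MYC tumours 2 and 3 and MYC+Ex3 tumours 1 and 3. Ex3 against WT gave 5 and 6 without Ex3 livers 3 and 4, and 7 and 11 without WT livers 4 and 5. Of the 10 genes, 4 to 6 were called for MYC across livers, and of the 8, 2 to 3 for both tumour kinds together, 2 to 3 for MYC tumours, 2 to 4 for MYC+Ex3 tumours and 0 to 1 between the tumour kinds.

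Rescaling each library by its median ratio lowered the share of calls that were higher from 66% to 52.7% for MYC across livers, from 75.9% to 59.1% for MYC against WT, from 77.7% to 67% for MYC+Ex3 against Ex3, from 70.4% to 53.6% for both tumour kinds together, from 72.6% to 53.4% for MYC tumours, from 69.7% to 55.2% for MYC+Ex3 tumours, and from 80% to 66.7% for the difference of Ex3 effects. Sqrdl in MYC+Ex3 against MYC tumours was -3.14 with a pseudocount of 0.1. No paired analysis was possible because the labels give no replicate number, litter, batch or day shared between groups.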
